A study of Mus musculus with 4 samples.

Results

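MicroRNA miR-126a of the mouse liver was measured as its 2 mature arms, mmu-miR-126a-3p and mmu-miR-126a-5p (the prefix is left out below), taken by name from the 1907 mature miRNAs counted in each library. Both arms had counts in all 4 libraries. The 2 TAA libraries came from C57BL/6 livers of mice given thioacetamide (TAA), a hepatotoxin that scars the liver of rodents, at 200 mg/kg by intraperitoneal injection 3 times a week for 10 weeks. The 2 control libraries came from C57BL/6 livers whose labels give the treatment as control; whether these mice received a vehicle is not stated in the labels. All livers were from mice aged 15 weeks, and small RNA libraries were made from total RNA of whole liver tissue. The design text speaks of biological replicates without naming animals, so p-values measure the spread between these libraries.

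Animal miRNAs are cut from a hairpin whose 5p and 3p arms can each be loaded into a silencing complex, where the seed (bases 2 to 8) pairs with target mRNAs. miR-126 is made from an intron of Egfl7, the gene of a protein secreted by endothelial cells, and is a widely used marker of endothelium, which in liver includes the cells lining the sinusoids. The 3p arm is known for repressing Spred1 and Pik3r2, brakes on the signalling of vascular growth factors. The 5p arm is known for repressing Dlk1, an inhibitor of Notch signalling, in arterial endothelium. miR-126 is also present in blood-forming stem cells and in platelets.

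The Mir126a hairpin lies at chr2:26591357-26591429 on the plus strand (GRCm38), inside Egfl7 at chr2:26580014-26593120 on the same strand. Of the 9 annotated Egfl7 transcripts that span it, 8 hold it in an intron, and 1, annotated as a retained intron, holds it in an exon. On the opposite strand the annotation places a second hairpin, Mir126b, at chr2:26591363-26591420, whose 58 bases all lie within those of Mir126a. The sequences below are from RefSeq (GRCm38.p6), which matched 1 of the 2 arms, miR-126a-3p, and they are shown because the reads of the 2 strands can be told apart by them. Capitals mark the seed in each mature miRNA, and in the hairpin they mark the whole of miR-126a-3p.
miR-126a-3p, chr2:26591402-26591423, plus strand: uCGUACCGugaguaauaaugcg
miR-126b-5p, chr2:26591399-26591420, minus strand: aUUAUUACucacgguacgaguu
miR-126b-3p, chr2:26591363-26591385, minus strand: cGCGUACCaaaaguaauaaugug
Mir126a hairpin: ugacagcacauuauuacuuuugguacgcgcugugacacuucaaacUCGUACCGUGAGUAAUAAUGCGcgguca
The mature miR-126a-3p has 22 bases, 10 of them G or C, at positions 46 to 67 of the 73-base hairpin. In the hairpin's predicted fold of lowest free energy (-31.2 kcal/mol, RNAfold 2.7.2), 19 of those 22 bases are paired. Its seed CGUACCG was carried by 0 others of the 1679 mature miRNAs in the table, and so were the seeds of both miR-126b arms. The bases of miR-126a-3p and miR-126b-5p overlap over 19 positions on opposite strands.

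Both arms were abundant in every liver, and the 5p arm was the more abundant. miR-126a-5p had 1030048 and 983856 counts in the TAA libraries, against 920773 and 1083398 counts in the control libraries. miR-126a-3p had 170294 and 178349 counts in the TAA libraries, against 152229 and 164202 counts in the control libraries. By count, the 5p arm stood at rank 10 in TAA 1 and in both controls and at rank 11 in TAA 2, while the 3p arm stood at rank 32 in both TAA libraries and at rank 31 in both controls. Together the arms made up 2.74% and 2.38% of all miRNA counts in the TAA libraries, against 2.52% and 2.70% in the control libraries, so that the groups overlapped. Counting error, the only error these 95% Wilson intervals cover, moved each of the 4 shares by no more than 0.0048 percentage points.

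Values were next expressed as CPM, counts relative to each library's total, scaled to a common size and corrected by TMM factors. miR-126a-5p had 22663 and 19178 CPM in the TAA libraries, against 21750 and 25344 CPM in the control libraries. The highest value was in control 2 and the lowest in TAA 2, and TAA 1 lay above control 1. miR-126a-3p had 3747 and 3477 CPM in the TAA libraries, against 3596 and 3841 CPM in the control libraries. Its 4 values had the same order, with control 2 highest and TAA 2 lowest, and were closer together, the highest being 1.10 times the lowest against 1.32 times for the 5p arm. The SD between libraries of a group was 5.29% (TAA) and 4.66% (control) of the mean for the 3p arm, and 11.8% (TAA) and 10.8% (control) for the 5p arm. Counting error alone would give at most 0.256% and 0.104% of the count for the 3p and the 5p arm. The spread between libraries, not counting error, therefore limited the precision of both arms. Differences between livers and in library preparation both enter that spread and cannot be told apart here.

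**Figure D1:**
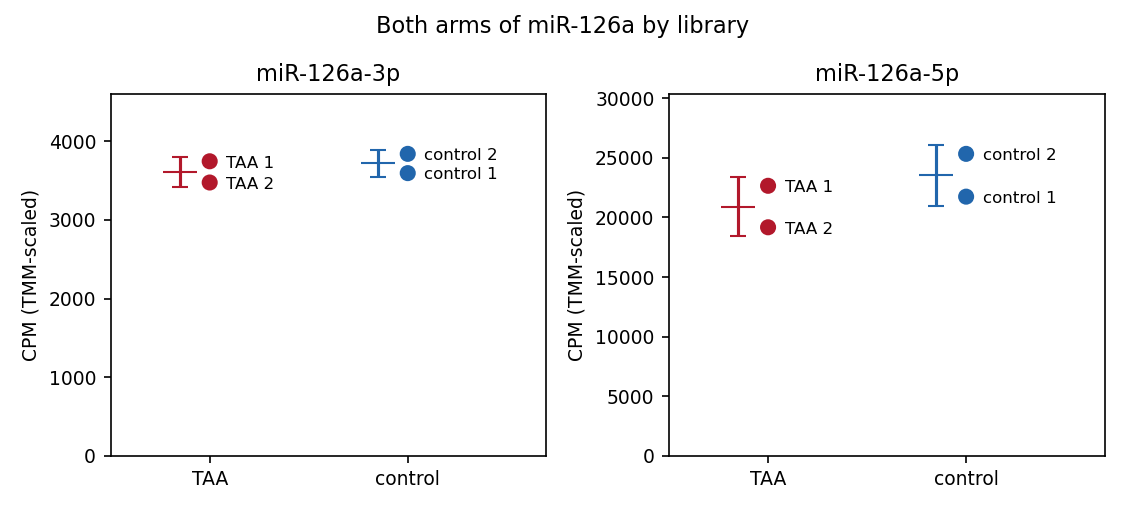
CPM (TMM-scaled, linear axis from 0) of miR-126a-3p and miR-126a-5p in 2 TAA and 2 control libraries; points are libraries, and the horizontal marks with bars are the group mean ± SD. In both arms TAA 1 lies between the 2 controls and TAA 2 lies below them.

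In abundance, miR-126a-5p stood at rank 10 and miR-126a-3p at rank 32 by mean CPM over the 4 libraries. Just above the 5p arm were miR-27b-3p and miR-143-3p, with means of 31319 and 26226 CPM, and just below it let-7f-5p and miR-122-5p, with 20408 and 18692 CPM, against 22234 CPM for miR-126a-5p. Within each library the 5p arm was below miR-143-3p and above miR-122-5p. Its place against let-7f-5p varied: let-7f-5p was the higher in TAA 2, at 20762 CPM against 19178 CPM for the 5p arm, and the lower in the other 3 libraries. The 3p arm, with a mean of 3665 CPM, stood between miR-125a-5p at 3872 CPM and miR-151-3p at 3224 CPM. The libraries of miR-126a-3p overlapped those of miR-125a-5p, whose values were 4395 and 4140 CPM in TAA and 3433 and 3520 CPM in control liver, and did not overlap those of miR-151-3p, which lay between 3068 and 3367 CPM.

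The comparison named by the series, TAA-treated against control liver, asks which miRNAs change as TAA-induced fibrosis develops. Neither arm of miR-126a passed the test, and the intervals bound how large a change these 4 libraries leave room for. miR-126a-3p averaged 3612 ± 191 CPM in TAA and 3719 ± 173 CPM in control liver (SD, n = 2 each), a log2 fold change of -0.04 with a standard error (SE) of 0.10 (edgeR adjusted p = 0.876). Its 95% interval ran from -0.28 to 0.20, or from 0.822-fold to 1.15-fold. miR-126a-5p averaged 20920 ± 2464 CPM in TAA and 23547 ± 2541 CPM in control liver (SD, n = 2 each), a log2 fold change of -0.17 (SE 0.12, edgeR adjusted p = 0.441). Its 95% interval ran from -0.45 to 0.11, or from 0.731-fold to 1.08-fold. Both intervals hold 0 and also hold decreases, so they do not show that the arms were equal in the 2 groups. In bulk liver, fewer endothelial cells and less miR-126a per cell cannot be told apart, and neither can a stable level from opposite changes in the 2.

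All miRNAs were fitted together by edgeR's quasi-likelihood method, with p-values adjusted by Benjamini-Hochberg over the 644 tested, and those under 0.05 were called changed. By that rule 107 of the 644 changed, or 16.6%, against 0 of the 2 arms; neither arm reached an unadjusted p of 0.05 (0.696 for 3p, 0.198 for 5p), and DESeq2 and limma-voom also called neither. The SE of the 3p arm was larger than that of 21 of the 644 miRNAs and that of the 5p arm larger than that of 48, with a median SE of 0.24 over all. The absolute log2 fold change was smaller in 61 miRNAs than in the 3p arm and smaller in 208 than in the 5p arm. The sign of the 3p change depended on scaling and on TAA 2: it was 0.08 with library size alone, where the median of all miRNAs was 0.12, 0.03 with only miRNAs of at least 10 CPM kept, and 0.02 without TAA 2. With upper-quartile factors it was -0.21, where the median of all miRNAs was -0.17. The 5p change was below 0 in all 13 alternatives, from -0.35 with upper-quartile factors to -0.05 with library size alone, and passed the threshold in 0 of them.

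**Figure D2:**
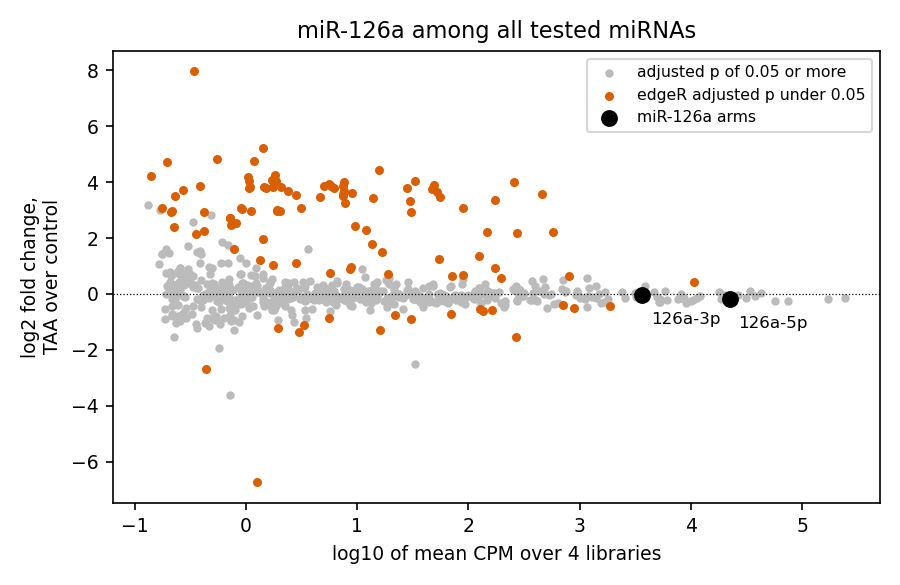
Log2 fold change, TAA over control, against the log10 of the mean CPM over 4 libraries for the 644 miRNAs tested with edgeR; orange points have an adjusted p under 0.05 and the black points are the arms of miR-126a. Both arms lie in the abundant, narrow part of the plot near 0, at -0.04 and -0.17.

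Whether TAA altered which arm accumulates was asked with the ratio of the 5p to the 3p count, which does not depend on scaling between libraries. The ratio was 6.05 and 5.52 in the TAA libraries, against 6.05 and 6.60 in the control libraries. TAA 1 and control 1 had nearly the same ratio, TAA 2 was below both and control 2 above both. The 5p arm thus held 85.8% and 84.7% of miR-126a counts in the TAA libraries, against 85.8% and 86.8% in the control libraries. On the log2 scale the ratio averaged 2.53 in TAA and 2.66 in control liver, a difference of -0.13 (SE 0.18, 95% interval -0.58 to 0.33, limma adjusted p = 0.985). The ratio was fitted in the 150 hairpins with 2 arms of matching name that each averaged 20 counts or more. Of these, 0 passed limma's adjusted threshold (0%) and 5 had an unadjusted p under 0.05. The number past the adjusted threshold was 3 with a pseudocount of 5 and 1 with a minimum of 100 counts. It was higher than these when either control was left out, in fits that leave 1 control library. miR-126a did not pass in any of these.

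The minor arm of miR-126a was next set against other hairpins. Among the 32 most abundant miRNAs, the number down to miR-126a-3p, miR-126a was the only hairpin, by name, with both arms present. That cutoff was set by miR-126a-3p itself, so miR-126a met it by definition. Just below it came miR-151, with its 3p arm at rank 33 and its 5p arm at rank 35. The mean log2 arm ratio of miR-151 was -0.32. From the 150 hairpins fitted, the 15 with the highest summed counts were taken, a number chosen after earlier results were known. Arms were paired by matching name, so abundant miRNAs whose arms are named differently, such as let-7f-5p and miR-26a-5p, were left out. The other 14 had mean log2 arm ratios of 3.60 to 11.8 in absolute value, against 2.59 for miR-126a. The nearest of them was miR-122, the hepatocyte miRNA, at 3.60 in favour of the 5p arm. Over all 150 hairpins the ratio of miR-126a was not extreme: 95 had a larger absolute log2 ratio, and the median was 3.64. The 5p arm exceeded the 3p arm in all 4 libraries in 76 hairpins and the 3p arm exceeded the 5p arm in 67.

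**Figure D3:**
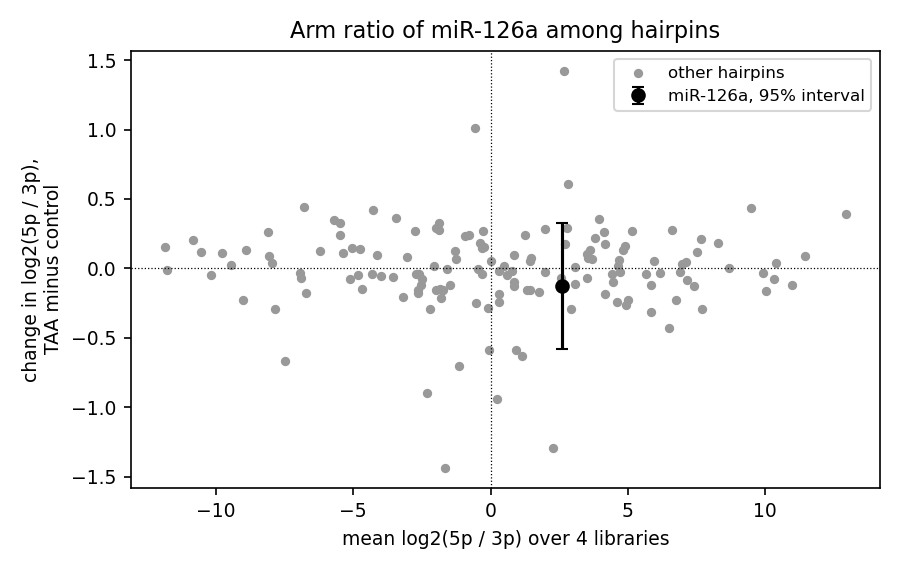
Change in log2(5p/3p), TAA minus control, against the mean log2(5p/3p) over 4 libraries, for 150 hairpins; grey points are single hairpins and the black point is miR-126a with its 95% limma interval. miR-126a lies at 2.59 on the horizontal axis and at -0.13 on the vertical axis, with an interval that spans 0.

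The opposite strand gave few reads. miR-126b-3p, whose bases are printed above, had 20 and 12 counts in the TAA libraries, against 29 and 10 counts in the control libraries. miR-126b-5p had 6 and 11 counts in the TAA libraries, against 13 and 16 counts in the control libraries. Both miR-126b arms together made up 0.00217% (95% Wilson interval 0.00148% to 0.00317%) and 0.00198% (0.00132% to 0.00297%) of counts at the locus in the TAA libraries, against 0.00391% (0.00290% to 0.00529%) and 0.00208% (0.00142% to 0.00305%) in the control libraries. At most 42 counts in a library were involved. Neither passed edgeR's test: the log2 fold change was -0.45 (SE 0.63, adjusted p = 0.744) for miR-126b-3p and -0.95 (SE 0.55, adjusted p = 0.338) for miR-126b-5p, at levels under 1 CPM.

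The level of miR-126a-3p relative to miRNAs of other liver cells was taken as the ratio of counts within a library. Over miR-122-5p, the hepatocyte miRNA, the ratio was 0.216 and 0.199 in the TAA libraries, against 0.197 and 0.178 in the control libraries. Both TAA values were above both controls, TAA 2 by a small margin over control 1, and the difference of the log2 ratios was 0.15. Over miR-143-3p, a miRNA of smooth muscle and stellate cells, it was 0.126 and 0.159 in the TAA libraries, against 0.137 and 0.143 in the control libraries, with the controls inside the range of the TAA libraries and a difference of 0.02. Over miR-142a-3p, a leukocyte miRNA, it was 35.3 and 33.4 in the TAA libraries, against 57.0 and 46.6 in the control libraries. Both TAA values were below both controls, and the log2 ratio was 5.10 ± 0.055 in TAA and 5.69 ± 0.20 in control liver (SD, n = 2 each), a difference of -0.59. A two-sided exact permutation test gave p = 0.333 for the ratios over miR-122-5p and miR-142a-3p (0.5 adjusted over the 3 ratios), the smallest that 2 libraries against 2 allow, and p = 1 for the ratio over miR-143-3p. The test therefore cannot reach 0.05 in this design.

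The ratios follow both of their parts. miR-142a-3p itself had 106 and 104 CPM in the TAA libraries, against 63.1 and 82.4 CPM in the control libraries (edgeR log2 fold change 0.53, SE 0.17, adjusted p = 0.0756). For its part, miR-122-5p had 17376 and 17500 CPM in the TAA libraries, against 18285 and 21608 CPM in the control libraries (log2 fold change -0.19, SE 0.11, adjusted p = 0.328). With miR-126a-5p as the numerator, the ratio over miR-122-5p was 1.30 and 1.10 in the TAA libraries, against 1.19 and 1.17 in the control libraries. The groups then overlapped, so the separation seen with the 3p arm did not extend to the 5p arm. Over miR-142a-3p the 5p arm gave 213 and 184 in the TAA libraries, against 345 and 308 in the control libraries, again with both TAA values below both controls.

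**Figure D4:**
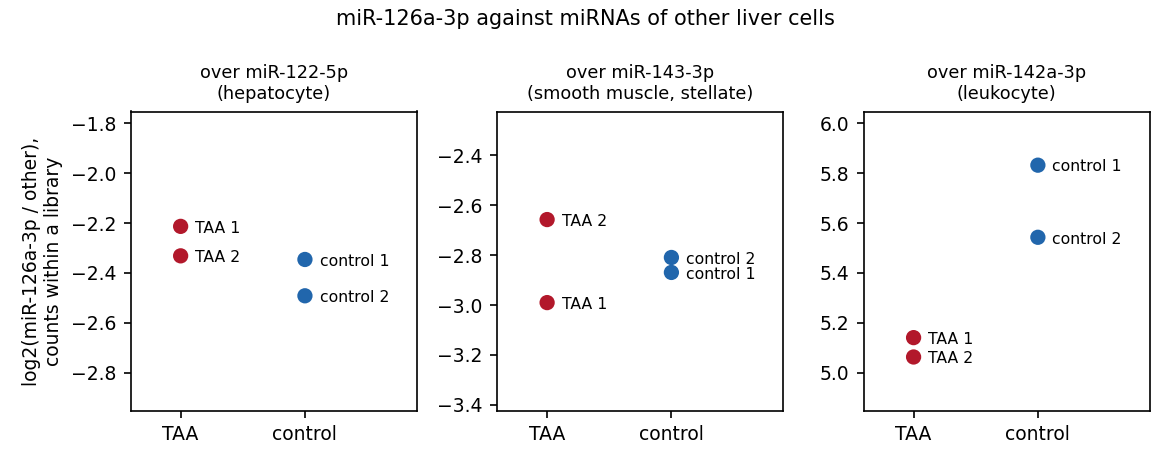
Log2 of the count of miR-126a-3p over that of miR-122-5p, miR-143-3p or miR-142a-3p within each library; points are 2 TAA and 2 control libraries, and the panels span equal ranges on the log2 axis. The groups lie apart over miR-142a-3p, with a difference of -0.59, are narrowly apart over miR-122-5p and overlap over miR-143-3p.

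Marker miRNAs of other cells were read from the same libraries. The leukocyte list had a summed level of 2501 and 2070 CPM in the TAA libraries, against 1216 and 1808 CPM in the control libraries, and 3 of its 7 members rose, where 14.0% of all tested miRNAs did. The median over the list was 0.57 on the log2 scale. The lymphocyte miRNA miR-150-5p rose by 1.34 (edgeR adjusted p = 0.000241), while the change of miR-142a-5p, the most abundant leukocyte member, was 0.57 (adjusted p = 0.138). Without single libraries the change of miR-142a-5p lay between 0.24 and 0.97, and it passed without control 2, with library size alone and with no filter on low counts. Of the list, 6 rose with library size alone, where 107 of all 644 tested did, and 6 with no filter, where 105 of 1256 did. With upper-quartile factors 2 rose, where 83 of 644 did. Fewer members rose without TAA 1 or without TAA 2 than in the fit reported, and more without control 2. The erythroid list summed to 731 and 2627 CPM in the TAA libraries, against 445 and 274 CPM in the control libraries, with TAA 2 far above the other 3. All 5 erythroid members rose, and miR-486a-5p, the most abundant of them, had a log2 fold change of 2.23 (adjusted p = 0.0199), but 0 did without TAA 2, with DESeq2 or with a minimum of 10 CPM. TAA 2, the library richest in erythroid miRNAs, was also the lowest in both arms of miR-126a by TMM-scaled CPM. As a share of all miRNA counts, without TMM factors, TAA 2 was the lowest in the 5p arm only. The share of the 3p arm was 0.388% and 0.365% in the TAA libraries, against 0.357% and 0.355% in the control libraries. The part of blood content in the miR-126a values was not tested.

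The 8 stellate and smooth muscle miRNAs summed to 32459 and 23987 CPM in TAA and 28426 and 28654 CPM in control liver. Of these, 1 rose, or 12.5%, where 14.0% of all tested miRNAs did. This was miR-214-3p (log2 fold change 0.65, edgeR adjusted p = 0.0354). It did not pass without TAA 1, without TAA 2, without control 2, with upper-quartile factors or with a minimum of 10 CPM. The most abundant member, miR-143-3p, had a log2 fold change of -0.04, while the median over the list was 0.39. Of the 8, 4 had an unadjusted edgeR p under 0.05. Of all 644 miRNAs tested, 165 had one, which is also the background for the hepatocyte list below. The number that rose was 4 with library size alone, 3 with no filter on low counts and 2 with DESeq2. It was 0 with upper-quartile factors. Over all tested miRNAs, in the same order, 107 of 644, 105 of 1256, 79 of 644 and 83 of 644 rose. Of the 7 hepatocyte miRNAs, which summed to 322689 and 334014 CPM in TAA and 355902 and 387280 CPM in control liver, 0 passed edgeR's or DESeq2's test and 3 had an unadjusted p under 0.05. Under other settings 2 fell with upper-quartile factors, miR-122-3p among them, and 1 with no filter on low counts. Over all tested miRNAs, 32 of 644 and 32 of 1256 fell under these settings. Members also fell without control 1 or without control 2. In the fit reported, the median log2 fold change of the 7 was -0.24. It was -0.16 for the most abundant, miR-192-5p, and -0.32 for miR-122-3p (edgeR adjusted p = 0.107). The epithelial miR-200 family stands for bile ducts in liver. Of its 5 members, which summed to 360 and 333 CPM in TAA and 387 and 428 CPM in control liver, 2 fell, where 2.64% of all tested miRNAs did. These included miR-141-3p (log2 fold change -0.72, adjusted p = 0.0232), while the most abundant, miR-200b-3p, had a log2 fold change of -0.16. Without TAA 1, without TAA 2 or with a minimum of 10 CPM, 0 of them passed, while 1 fell without control 1 and 1 without control 2. The share of each cell type in these tissues is not given in the labels, and its part in the miR-126a values was not tested.

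Other miRNAs described in endothelial cells or in blood vessel growth gave no common direction. Of the 23 on the list, all were tested, 1 rose and 2 fell, or 4.35% and 8.70% of the list, against 14.0% of all tested miRNAs that rose and 2.64% that fell. Their median log2 fold change was -0.02, against -0.0042 over all tested, and it was 0.10 with library size alone and -0.18 with upper-quartile factors. miR-10b-5p, a HOX cluster miRNA that promotes sprouting in zebrafish vessels, had 143 and 130 CPM in the TAA libraries, against 473 and 321 CPM in the control libraries, and fell by 1.54 on the log2 scale (SE 0.19, edgeR adjusted p = 0.000666). miR-210-3p, which hypoxia induces in endothelial and other cells, had 19.5 and 22.9 CPM in the TAA libraries, against 38.8 and 41.1 CPM in the control libraries, and fell by 0.91 (SE 0.17, adjusted p = 0.00727). miR-31-5p had 879 and 1084 CPM in the TAA libraries, against 624 and 650 CPM in the control libraries, and rose by 0.62 (SE 0.13, adjusted p = 0.0156). Over the list, the groups did not overlap in 3 members that were higher and 7 that were lower in TAA liver. The same count was not made over all tested miRNAs, so whether these numbers are unusual is not known. Among those members were miR-10b-5p, miR-210-3p and miR-31-5p. These were named for passing the test, so their separation adds no support. Of these, miR-31-5p did not pass with upper-quartile factors or with a minimum of 10 CPM. Without single libraries miR-10b-5p lay between -1.80 and -1.26, miR-210-3p between -1.03 and -0.80 and miR-31-5p between 0.47 and 0.76. The calls of miR-10b-5p, miR-210-3p and miR-31-5p did not hold without TAA 1 or without TAA 2, fits that leave 1 TAA library.

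The most abundant vascular miRNAs had values near 0. miR-10a-5p, a close relative of miR-10b-5p, had 46106 and 41058 CPM in the TAA libraries, against 43477 and 40778 CPM in the control libraries, a log2 fold change of 0.05 (SE 0.10). For miR-27b-3p, of the miR-23b cluster, the change was -0.15 (SE 0.10), and for miR-23b-3p of the same cluster it was -0.05 (SE 0.13). For miR-92a-3p, known as a brake on vessel growth, it was 0.05 (SE 0.10), and for miR-130a-3p it was -0.17 (SE 0.11). Their edgeR adjusted p-values were between 0.401 and 0.886. The values for miR-10a-5p, miR-92a-3p and miR-23b-3p changed sign with other scaling or without single libraries.

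**Figure D5:**
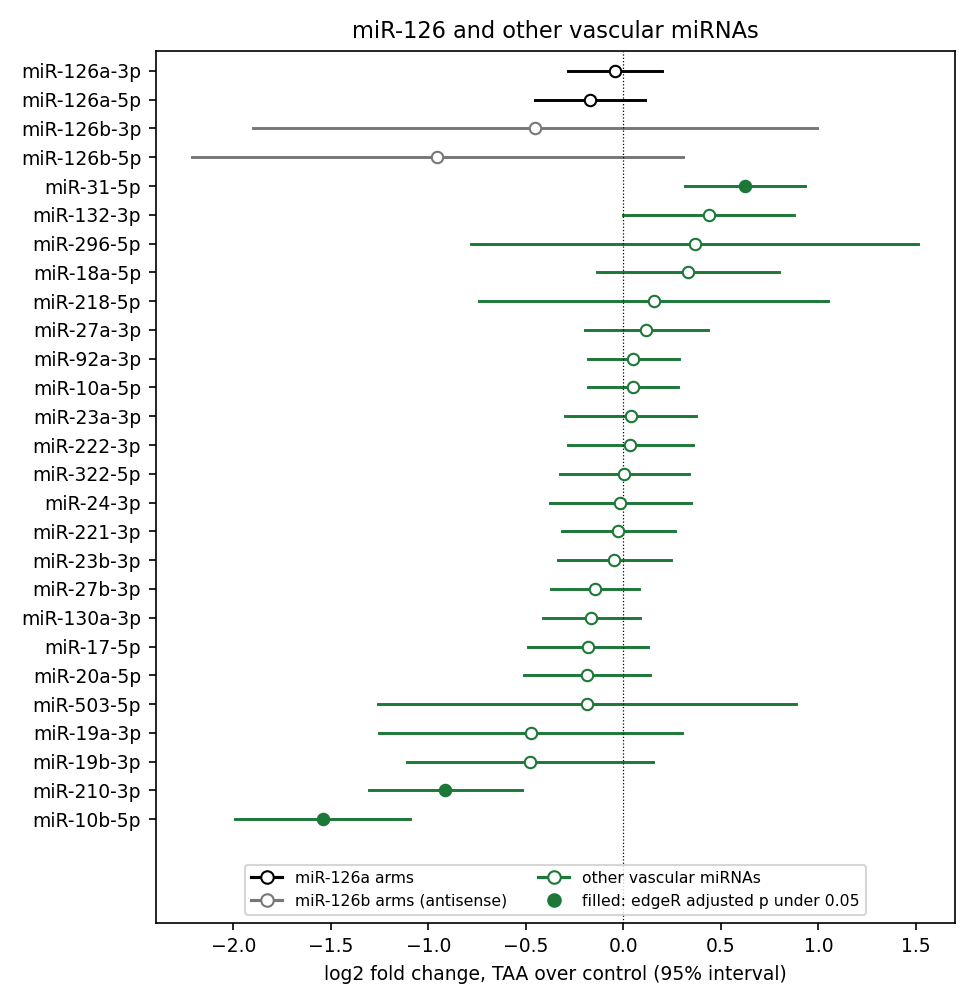
Log2 fold change, TAA over control, with 95% edgeR intervals for both arms of miR-126a, both arms of miR-126b and the 23 other vascular miRNAs; filled points have an adjusted p under 0.05. The intervals of miR-126a are among the narrow ones and span 0, while miR-31-5p lies above 0 and miR-210-3p and miR-10b-5p lie below it.

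The miRNAs closest to miR-126a-3p in pattern were sought among the 136 others with a mean of at least 100 CPM, by the root mean square difference of log2(CPM + 0.5) over the 4 libraries after centring each miRNA on its own mean. The 5 closest were let-7b-3p (0.030), miR-26a-5p (0.036), miR-125b-2-3p (0.043), miR-186-5p (0.048) and miR-27b-3p (0.052), against a median of 0.13 over all 136. Of these, miR-26a-5p had 39026 and 34625 CPM in the TAA libraries, against 38265 and 39070 CPM in the control libraries, and let-7b-3p had 146 and 140 CPM in TAA, against 144 and 148 CPM in control liver. Both had their lowest value in TAA 2, as miR-126a-3p had. The 5p arm of the same hairpin stood at place 34, at 0.091. With 4 libraries that share scaling and depth, such likeness is a description and was given no test.

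The libraries held 43836911 and 48878003 miRNA counts in TAA and 42609845 and 46224018 in control liver, or 65.4% to 68.7% of reads, with 22.8% to 26.4% of reads outside annotated miRNAs. The hepatocyte miRNA miR-192-5p had the highest mean CPM of all, and the hepatocyte-specific miR-122-5p stood at rank 12, so the hepatocyte markers fit the tissue label.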

How the data were processed

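Small RNA from 2 TAA-treated and 2 control livers was sequenced from TruSeq libraries, per the labels' protocols. The authors deposited 1 file per library with unnormalized counts of reads for each mature miRNA. Bowtie, HTSeq and mm10 are named in the submitters' processing notes; the sources used here give no versions, settings, trimming, strand use or miRNA release. The 5 summary rows that name no miRNA were kept out of library sizes: reads outside annotated miRNAs were 22.8% to 26.4% and unaligned reads 7.11% to 8.49%, and multiply aligned reads were listed at 0.

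Samples were grouped by the treatment labels. Chi-square per degree of freedom was 324 for TAA 1 against TAA 2 and 237 for control 1 against control 2, far above sampling noise, and all 4 libraries were counted as separate samples. The test was that of edgeR 4.0.16 in R 4.3.3 (quasi-likelihood F test, TMM factors, filterByExpr), adjusted over 644 miRNAs. The SE is the log2 fold change divided by the square root of F, and 95% intervals use the fit's degrees of freedom. Arm ratios, log2 of 5p over 3p counts each plus 0.5, were fitted with limma 3.58.1 in 150 hairpins. Ratios between miRNAs had an exact permutation test. The procedures were tested on simulated data. Alternatives were other scaling, filters, DESeq2 1.42.0, limma-voom, a replicate block and leaving out each library. The arms, lists, tests and alternatives were chosen with earlier results of these data known. The rule for naming miRNAs took both hairpins at the locus, the ratio partners, neighbours in abundance, the 5 closest patterns, vascular members past the test or among the 6 most abundant, and the most abundant member and that of smallest p of each other list. Annotation was GENCODE's for GRCm38, which is mm10.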

Additional observations from a re-analysis of the deposited data

How the results depend on the processing

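Neither arm of miR-126a nor their ratio passed the threshold under any alternative run; over 13 alternatives the adjusted p was 0.349 to 0.996 for the 3p arm and 0.115 to 0.908 for the 5p arm. The log2 fold change of miR-126a-3p turned to 0.080 with library size alone, 0.034 with a minimum of 10 CPM and 0.016 without TAA 2; leaving out single libraries gave -0.11 to 0.02 for the 3p arm, -0.30 to -0.05 for the 5p arm and -0.20 to -0.06 for the log2 arm ratio. The log2 ratio of miR-126a-3p over miR-143-3p turned to -0.11 with the 5p arm as numerator. It lay between -0.15 and 0.18 without single libraries. The ratios over miR-122-5p and miR-142a-3p kept their sign, at 0.07 to 0.22 and -0.73 to -0.44 without single libraries. With the 5p arm as numerator they were 0.02 and -0.72. With the other arm of the reference hairpin they were 0.28 and -0.65. Where a library was left out, the lone sample of its group was assumed to vary like the others.

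Of all miRNAs, 107 changed, against 27 with a minimum of 10 CPM, where 273 were tested, and 49 to 131 without single libraries (54 without TAA 1, 49 without TAA 2). With upper-quartile factors 83 rose and 32 fell, 72.2% higher, against 90 and 17, 84.1% higher, in the fit reported. Same-numbered libraries were not stated to be paired, and their deviations correlated at -0.13. With the replicate number as a block the log2 fold changes were -0.04 for miR-126a-3p and -0.17 for miR-126a-5p and the arm ratio -0.13, none past the threshold, and 110 miRNAs changed; with crossed numbers, added after that correlation was seen, 115 changed.

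For the 17 other miRNAs named with tests, 185 of 221 alternative values kept direction and side of the threshold, 20 lost it, 5 passed it newly and 11 changed sign. With upper-quartile factors miR-10a-5p was at -0.12 and miR-92a-3p at -0.12. With library size alone miR-23b-3p was at 0.070 and miR-143-3p at 0.079, and with a minimum of 10 CPM they were at 0.030 and 0.032. Without single libraries miR-10a-5p lay between -0.040 and 0.14, miR-92a-3p between -0.039 and 0.12, miR-23b-3p between -0.17 and 0.062 and miR-143-3p between -0.28 and 0.17. The cause of these shifts was not tested.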

Other observations

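The pattern of miR-126a-5p over the 4 libraries was compared in the same way as that of the 3p arm, a comparison added after the data were seen. The 5 closest of the 136 other miRNAs with a mean of at least 100 CPM were miR-26b-5p (root mean square difference of centred log2 values 0.027), miR-20a-5p (0.061), miR-27b-3p (0.061), miR-16-5p (0.072) and miR-130a-3p (0.073), against a median of 0.17. Of these, miR-27b-3p, miR-20a-5p and miR-130a-3p are on the vascular list. miR-27b-3p was also among the 5 closest to the 3p arm, and miR-126a-3p itself stood at place 13. No test was made of this likeness.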
